A study of Rattus norvegicus with 53 samples.

Results

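The genes described here encode splicing factors and heterogeneous nuclear ribonucleoproteins (hnRNP proteins), followed in rat L6 myotubes with and without insulin. They were chosen by gene symbol: Hnrnp genes, numbered Srsf genes, Sf3a and Sf3b genes, Snrp genes and numbered Prpf genes, together with Tra2a, Tra2b and, from outside these families, Rbms1. The rule found 99 probe sets of 61 genes among 31099 probe sets of 14217 genes with a single symbol on the array, and each gene was read at its brightest probe set by the mean over all arrays. Of the 61 members, 58 had a mean log2 level of at least 5 and were tested. Snrpn, the neuronal Sm protein, had a mean level of 4.56, Srsf3 of 3.58 and the pseudogene Srsf7-ps4 of 3.21, and these 3 members were not tested.

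L6 is a clonal line of rat skeletal muscle myoblasts that fuse into myotubes in medium of low serum, and all cultures came from this line. After differentiation and 8 hours without serum, plates received serum-free medium with 20 nM insulin (insulin culture) or with 0 nM insulin (control culture). RNA taken every 20 min was pooled by hour, 3 samples to a pool, and the pool of each hour was measured beside the pool of time 0, which in both cultures precedes insulin. Cultures were repeated on different days to give 3 runs, called letters a, b and c, and these gave 53 arrays in 18 groups of 3, except the insulin culture of hour 3 with 2, since its array of letter a was not analysed here.

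The array medians lay between 6.3 and 6.37 on the log2 scale. The 11 myotube markers had mean levels of 5.32 (Myh8) to 13.5 (Acta1), and none passed over hours 5 to 8. Among them Myh3 and Myog lay at 13.4 and 12.4, and Actn2, Des and Chrna1 at 6.81, 7.30 and 7.40. The 3 endothelial markers measured lay between 3.48 and 4.93 and the 4 adipocyte markers between 4.01 and 4.60. The 6 macrophage markers had mean levels of 2.99 (Adgre1) to 6.58 (Lyz2), and their summed log2 level over hours 5 to 8 ranged from 29.68 to 31.34 in control and from 29.90 to 31.56 with insulin. The 4 fibroblast markers had mean levels of 6.42 (Pdgfra) to 12.1 (Thy1), with Lum at 9.72 and Dcn at 7.36, and their summed level ranged from 34.97 to 36.80 in control and from 34.30 to 35.38 with insulin. The 6 markers of dividing cells had mean levels of 8.31 to 10.2 without a called difference. Ccnd1, the G1 cyclin D1, was higher with insulin by 0.61 over hours 5 to 8 and Pdgfra lower by a difference of -0.32, while Thy1, Lum and Dcn did not pass. Cd68, of the macrophage list, with a mean level of 5.57, was higher by 0.14 over hours 1 to 8. The part of these genes in the results on splicing genes was not tested. In RNA of whole cultures, fewer cells of a type and less RNA per cell cannot be told apart.

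Pre-mRNA splicing removes introns through the spliceosome, whose small nuclear ribonucleoproteins (snRNPs) are built on a ring of Sm proteins. SR proteins bind exons and mostly favour their inclusion, whereas hnRNP proteins coat the nascent transcript and often act against them, so the balance between both groups shapes alternative splicing. The SF3a and SF3b complexes hold the U2 snRNP at the branch point, and the PRP factors assemble, rearrange and activate the spliceosome. In muscle, alternative splicing produces the isoforms of contractile proteins, and the insulin receptor itself is made in alternatively spliced forms.

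Promoters are shown for Srsf1, Srsf6, Hnrnpab and Prpf18, the members whose 12 insulin and 12 control arrays of hours 5 to 8 did not overlap. The sequences come from RefSeq on the GRCr8 assembly and run over the 250 bases before the annotated start of the gene, 5' to 3' on the strand of the gene. Capitals mark CCGGAAG, the core bound by ETS factors, searched on both strands together with CACGTG, an E-box bound by Myc and other basic helix-loop-helix factors. Srsf1 lies on the plus strand, with the window at chr10:73336248-73336497, Srsf6 on the plus strand at chr3:172008822-172009071, Hnrnpab on the minus strand at chr10:36363899-36364148, and Prpf18 on the plus strand at chr17:78539640-78539889.
Srsf1: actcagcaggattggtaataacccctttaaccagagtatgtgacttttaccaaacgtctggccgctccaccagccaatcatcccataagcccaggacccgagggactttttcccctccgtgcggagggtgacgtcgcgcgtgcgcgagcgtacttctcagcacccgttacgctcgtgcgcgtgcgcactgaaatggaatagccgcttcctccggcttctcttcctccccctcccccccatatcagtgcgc
Srsf6: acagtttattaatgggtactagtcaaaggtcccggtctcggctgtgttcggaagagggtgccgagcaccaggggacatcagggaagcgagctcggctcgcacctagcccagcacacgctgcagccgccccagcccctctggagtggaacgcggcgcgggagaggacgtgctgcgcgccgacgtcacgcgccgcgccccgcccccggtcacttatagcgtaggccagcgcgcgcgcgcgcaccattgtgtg
Hnrnpab: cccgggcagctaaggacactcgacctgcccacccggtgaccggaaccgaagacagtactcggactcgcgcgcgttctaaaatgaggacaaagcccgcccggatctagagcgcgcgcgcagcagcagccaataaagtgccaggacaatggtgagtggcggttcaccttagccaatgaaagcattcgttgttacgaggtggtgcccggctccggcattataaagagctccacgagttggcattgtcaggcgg
Prpf18: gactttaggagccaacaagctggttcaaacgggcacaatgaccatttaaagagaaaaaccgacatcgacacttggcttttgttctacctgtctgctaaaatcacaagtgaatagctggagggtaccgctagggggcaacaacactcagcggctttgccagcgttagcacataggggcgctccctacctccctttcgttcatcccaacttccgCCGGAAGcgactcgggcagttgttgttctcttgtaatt
The windows of Srsf1, Srsf6 and Hnrnpab hold neither motif, and that of Prpf18 holds CCGGAAG 38 bases before the start. Of the 61 members 57 had a promoter in the table, in 61 windows. CCGGAAG was present in 18 of these windows (29.5%), against 7.27% of the 33469 windows of all genes, and CACGTG in 6 (9.84%, against 5.59%). The median GC content was 58.4% in the windows of members and 51.2% in all windows. Among the windows of members called higher with insulin below, 5 of 20 held CCGGAAG, and among those of members not called, 12 of 38. These counts are of windows and not of genes, since the 5 belong to Hnrnpf, which has several windows, Sf3a3 and Srsf4. Counted by gene, 16 of the 57 members with a promoter held CCGGAAG.

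The main question was whether the transcripts of these genes differ between insulin and control cultures, and when. Late in the course, over hours 5 to 8, 13 of the 58 tested members stood higher in the insulin culture, 1 stood lower and 44 did not pass (limma, Benjamini-Hochberg adjusted p under 0.05 over all tested probe sets). The share of members called higher was 22.4%, beside 3.98% of all 22143 tested probe sets, and 5.27% of these were lower. Without Rbms1 it was 12 of 57 (21.1%). In these shares and those below the sets are unlike. The median level was 10.3 among the tested members and 7.42 among all tested probe sets. Members were read at their brightest probe set and were chosen with earlier results of these data known. The part of this in the shares was not tested. Over hours 1 to 8 the counts were again 13 higher, 1 lower and 44 not passing, beside 5.47% higher and 6.55% lower among all tested probe sets. In all, 16 members were higher in at least 1 of these comparisons, 10 of them in both, and Prpf18 was lower in both. The differences of the 16 over hours 5 to 8 lay between 0.095 and 0.32 on the log2 scale, which is 1.07-fold to 1.25-fold.

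The median difference over hours 5 to 8 was 0.11 across the 58 members and 0.0041 across all tested probe sets. It was above 0 in 48 members (82.8%), against 51.6% of all. By group, the medians of the SR and Tra2 proteins (0.18), of the Sm and snRNP proteins (0.11), of the hnRNP proteins (0.099), of SF3a and SF3b (0.095) and of the PRP factors (0.092) were all positive. The median over the members was 0.097, 0.11 and 0.11 in letters a to c. The median standard error (SE) of a difference was 0.068 among the members and 0.072 among all tested probe sets. The 41 tested members called in neither comparison had differences of -0.17 to 0.27 with SEs of 0.036 to 0.21.

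**Figure D1:**
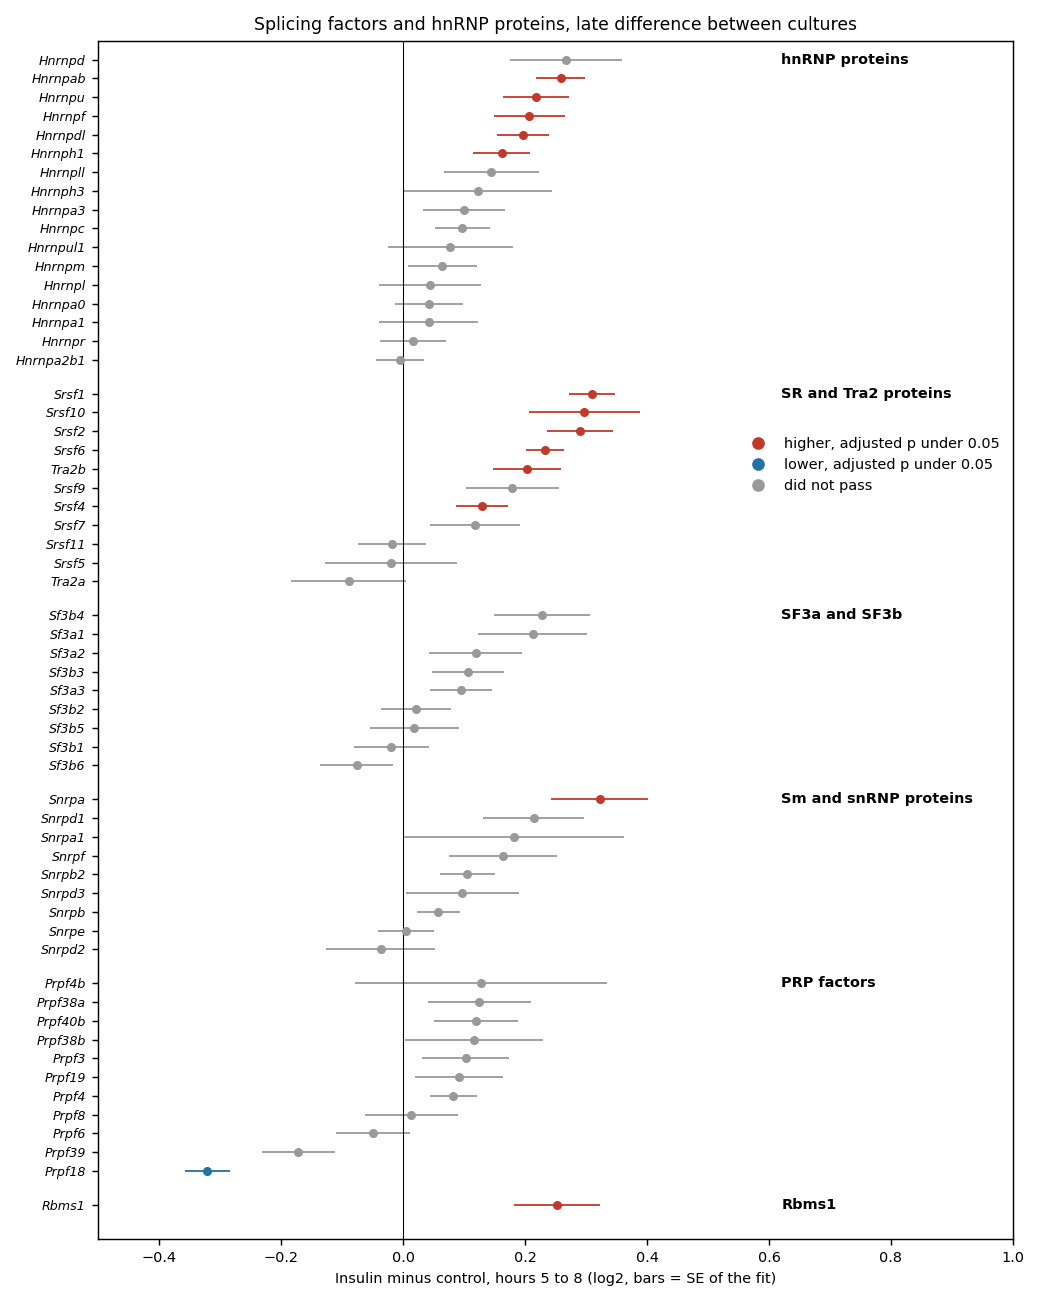
Insulin minus control difference over hours 5 to 8 for the 58 tested members, on the log2 scale, by group; bars are the SE of the fit. Points in red (13) were higher and the point in blue (Prpf18) lower with an adjusted p under 0.05, and grey points did not pass; the SR and Tra2 proteins hold 6 of the red points and the hnRNP proteins 5.

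Arrays of the same letter and hour shared deviations from their group means. With the letter as a block the late counts were 22 members higher and 2 lower, beside 9.26% and 12.4% of all tested probe sets, and 25 were higher and 1 lower over hours 1 to 8, beside 11.6% and 15%. The second member lower under the block was Prpf39, a factor associated with the U1 snRNP (difference -0.17, adjusted p = 0.0639 without the block). The hours of 1 letter are not separate repeats. When each letter was reduced to 1 mean per culture, no member passed over hours 5 to 8 or hours 1 to 8. This held with and without the letter as a block (limma, 0 higher and 0 lower). Over hours 5 to 8, 0 of all 22143 tested probe sets passed without the block, and 276 were higher and 377 lower with it. At an unadjusted p under 0.05 there were 17 members over hours 5 to 8 with the block (15.8% of all) and 6 without it (4.93% of all), and 10 and 2 over hours 1 to 8 (14.9% and 2.51% of all). The lowest adjusted p over hours 5 to 8 was 0.0577 with the block, for Srsf1. In letter b the difference between cultures at time 0 resembled that of the following hours, with a correlation to its mean of hours 1 to 5 of 0.772 across the 22143 tested probe sets, against 0.025 and 0.15 for letters a and c; probe sets are not independent replicates. Once the arrays of letter b up to hour 5 (the early arrays of letter b) were set aside, 10 members were higher and 1 lower over hours 5 to 8 (3.03% and 4.55% of all), and 8 and 1 over hours 1 to 8 (1.73% and 2.82%).

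Of the 11 tested SR and Tra2 proteins, 6 passed as higher in the late hours 5 to 8 and none was lower. Srsf1, an SR protein that binds exonic enhancers and acts in both constitutive and alternative splicing, ranged over hours 5 to 8 from 10.71 to 10.90 on the 12 control arrays (median 10.78) and from 10.92 to 11.29 on the 12 insulin arrays (median 11.10). Every insulin array lay above every control array. The difference was 0.31 (SE 0.037, limma adjusted p = 1.23e-07), with letter values of 0.36, 0.36 and 0.21. This p and those given below for single genes treat the hours of a letter as separate arrays. With 1 mean per letter and the letter as a block, the adjusted p of Srsf1 was 0.0577 (limma). The dimmer probe set of Srsf1 gave 0.51 (SE 0.060, adjusted p = 6.33e-08), and its arrays did not overlap either, at 8.44 to 8.81 in control and 8.95 to 9.35 with insulin.

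Srsf6, an SR protein of alternative splicing, ranged from 10.49 to 10.68 in control (median 10.64) and from 10.74 to 10.94 with insulin (median 10.84) over hours 5 to 8, again without overlap. Its difference was 0.23 (SE 0.031, limma adjusted p = 9.07e-07) and lay between 0.22 and 0.24 in the 3 letters. Its dimmer probe sets gave 0.25 (adjusted p = 0.0731) and 0.24 (adjusted p = 0.0432). Non-overlap of this kind was seen in 0.37% of all tested probe sets with insulin above control and in 0.677% with insulin below, and in the members it occurred for Srsf1, Srsf6 and Hnrnpab above and for Prpf18 below.

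Srsf2, an SR protein concentrated in nuclear speckles, ranged from 11.75 to 12.09 in control (median 11.87) and from 11.94 to 12.38 with insulin (median 12.15), with overlap. The difference was 0.29 (SE 0.055, limma adjusted p = 2.76e-04), and insulin was higher in 12 of 12 pairs of the same letter and hour. Here and below, counts of pairs are a description. The hours of a letter are not separate repeats, and the calls came from these same arrays. The difference of Srsf2 was uneven among letters a to c, at 0.52, 0.24 and 0.11. Without letter a it was 0.18 and did not pass (adjusted p = 0.0899). Its dimmer probe set gave 0.38 (adjusted p = 1.85e-04).

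Srsf10, an SR-like protein that can repress splicing, ranged from 8.20 to 8.87 in control (median 8.53) and from 8.57 to 9.17 with insulin (median 8.78), a difference of 0.30 (SE 0.091, limma adjusted p = 0.0307). The SR-like protein Tra2b, which binds purine-rich exonic enhancers, ranged from 11.28 to 11.62 in control (median 11.43) and from 11.50 to 11.81 with insulin (median 11.63), a difference of 0.20 (SE 0.056, adjusted p = 0.0142). The groups of both genes overlapped, with insulin higher in 12 of 12 pairs. Their dimmer tested probe sets did not pass over hours 5 to 8. Those of Srsf10 gave 0.17 and 0.22 (limma adjusted p = 0.397 and 0.412). That of Tra2b, almost as bright with a mean level of 11.42, gave 0.18 (adjusted p = 0.16). For Tra2b the difference over hours 1 and 2 was already 0.17 and that of hours 1 to 8 was 0.20 (adjusted p = 4.86e-04), so its 2 curves ran side by side. Srsf4, another SR protein, had a difference of 0.13 (SE 0.042, adjusted p = 0.0459). With the early arrays of letter b set aside, Srsf10, Tra2b and Srsf4 no longer passed over hours 5 to 8 (adjusted p = 0.0912, 0.0555 and 0.0586), while their differences were 0.28, 0.19 and 0.14.

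The remaining SR and Tra2 members did not pass in either comparison. Srsf9 had a difference of 0.18 over hours 5 to 8 (SE 0.076, limma adjusted p = 0.153), Srsf7 of 0.12 (SE 0.073), Srsf11 of -0.018 (SE 0.056) and Tra2a, the paralog of Tra2b, of -0.090 (SE 0.094). Srsf5, an SR protein linked to insulin-regulated splicing of protein kinase C beta in muscle cells, had -0.020 (SE 0.11, adjusted p = 0.954), with control arrays at 10.75 to 11.27 and insulin arrays at 10.74 to 11.45. These ranges overlapped almost wholly. Srsf5 and Srsf11 were above 0 over hours 1 and 2 (0.28 and 0.18) without passing.

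**Figure D2:**
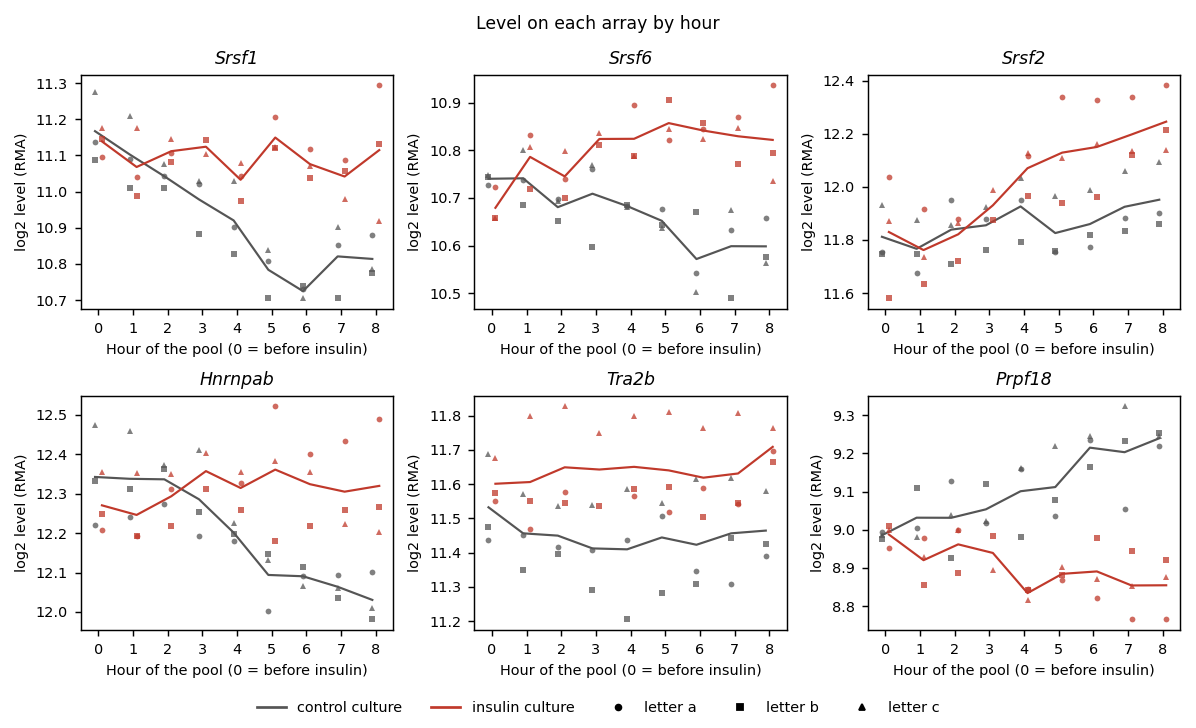
Level on each array (RMA, log2 scale) by hour of the pool for Srsf1, Srsf6, Srsf2, Hnrnpab, Tra2b and Prpf18; symbols mark the letters a, b and c, and lines join the means of each culture, with 3 arrays per point except 2 for insulin at hour 3. Srsf1 and Hnrnpab fell in the control culture towards the late hours while the insulin culture stayed near its start, Srsf2 climbed with insulin, the curves of Tra2b ran parallel, and Prpf18 was lower with insulin.

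Of the 17 hnRNP proteins, all tested, 5 passed as higher with insulin in hours 5 to 8 and none was lower. Hnrnpab, an A/B type hnRNP that binds RNA and single-stranded DNA, ranged from 11.98 to 12.15 in control (median 12.08) and from 12.18 to 12.52 with insulin (median 12.31). The groups did not overlap. The difference was 0.26 (SE 0.040, limma adjusted p = 1.56e-05), at 0.39, 0.16 and 0.22 in letters a to c.

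Hnrnpdl, a relative of Hnrnpd that is mutated in a limb-girdle muscular dystrophy, ranged from 10.49 to 10.81 in control (median 10.70) and from 10.78 to 10.99 with insulin (median 10.90). Only the edges of these groups overlapped, and the difference was 0.20 (SE 0.043, limma adjusted p = 0.0015). It was higher in 12 of 12 pairs of hours 5 to 8, and its difference over hours 1 and 2 was 0.16. The difference of Hnrnpdl at time 0, before insulin, was 0.33, 0.12 and 0.092 in letters a to c, and relative to time 0 its late difference was 0.018 (adjusted p = 0.998). The next brightest probe set of Hnrnpdl gave 0.28 (limma adjusted p = 2.65e-04). Its dimmest gave 0.14 (adjusted p = 0.107) and did not pass over hours 5 to 8.

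Hnrnpu, which binds nuclear scaffold DNA as well as RNA, ranged from 11.11 to 11.39 in control (median 11.23) and from 11.23 to 11.72 with insulin (median 11.37), a difference of 0.22 (SE 0.054, limma adjusted p = 0.00585). Hnrnpf and Hnrnph1, closely related proteins that bind runs of G, had differences of 0.21 (SE 0.058, adjusted p = 0.0157) and 0.16 (SE 0.047, adjusted p = 0.0204). In these 3 genes the cultures overlapped, and insulin was higher in 11 of 12 pairs for Hnrnpu and in 12 of 12 for Hnrnpf and Hnrnph1. For Hnrnpu letter a was above the others, with 0.40 against 0.13 and 0.12, and without letter a its difference was 0.12 (adjusted p = 0.106). The dimmer probe sets of Hnrnpu gave 0.14 and 0.15 over hours 5 to 8 (limma adjusted p = 0.112 and 0.579) and did not pass. Hnrnpc, which binds runs of U, passed over hours 1 to 8 only (0.10, SE 0.032, adjusted p = 0.0295), and not over hours 5 to 8 (0.097, adjusted p = 0.208). With the early arrays of letter b set aside, the differences over hours 1 to 8 were 0.089 for Hnrnpc (adjusted p = 0.295), 0.15 for Hnrnpf (0.0908) and 0.099 for Hnrnph1 (0.166), and that of Hnrnpf over hours 5 to 8 was 0.19 (0.0613), so these calls were lost.

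Among the hnRNP genes that did not pass, Hnrnpd, which binds AU-rich elements and regulates mRNA decay, had the highest late difference, at 0.27 (SE 0.092, limma adjusted p = 0.0585). Its arrays ran from 9.23 to 10.12 in control and from 9.54 to 10.21 with insulin. The letters were 0.42, 0.13 and 0.25, and it passed with the letter as a block and also with the early arrays of letter b set aside. Hnrnpa3, a packaging protein of the A group, ranged from 12.23 to 12.66 in control (median 12.48) and from 12.37 to 12.79 with insulin (median 12.59), and its difference of 0.099 (SE 0.068, adjusted p = 0.464) did not pass, nor did any of its 4 dimmer probe sets. Hnrnpa2b1 was within an SE of 0 at -0.0059 (SE 0.040).

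Hnrnpa1, a repressor of exon inclusion that competes with Srsf1 for splice site choice, gave different answers at its 3 probe sets. At the brightest, the control arrays of hours 5 to 8 ran from 10.95 to 11.43 (median 11.09) and the insulin arrays from 11.01 to 11.53 (median 11.07), a difference of 0.042 (SE 0.081, limma adjusted p = 0.853). At the next brightest, the control arrays ran from 9.07 to 9.76 (median 9.39) and the insulin arrays from 9.43 to 10.18 (median 9.91), a difference of 0.41 (SE 0.077, adjusted p = 2.37e-04). The third probe set gave 0.065 (adjusted p = 0.787). Which transcripts each probe set detects was not tested. The study's own pattern table lists this next brightest probe set of Hnrnpa1 together with probe sets of Srsf1, Srsf6, Rbms1 and Prpf18, and since that table was made from these arrays it is not independent evidence for any of them.

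Of the 9 tested Sm and snRNP proteins, 1 was higher over hours 5 to 8: Snrpa, an RNA-binding protein of the U1 snRNP, which recognises the 5' splice site. It ranged from 8.84 to 9.61 in control (median 9.13) and from 9.39 to 9.75 with insulin (median 9.51). The groups overlapped, with insulin higher in 12 of 12 pairs. Its difference was 0.32 (SE 0.079, limma adjusted p = 0.00557), with letters at 0.48, 0.31 and 0.18. Over hours 1 and 2 it was -0.090, and over hours 1 to 8 it did not pass (0.15, adjusted p = 0.071).

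None of the Sm ring proteins passed at the brightest probe set: Snrpd1 had a difference of 0.21 (SE 0.083), Snrpf of 0.16 (SE 0.089), Snrpd3 of 0.097 (SE 0.093), Snrpb of 0.058 (SE 0.036), Snrpe of 0.0046 (SE 0.046) and Snrpd2 of -0.037 (SE 0.090). The control arrays of Snrpe ran from 11.68 to 11.91 (median 11.80) and its insulin arrays from 11.66 to 11.99 (median 11.77), which is complete overlap. The dimmer probe set of Snrpd1 was higher over hours 1 to 8 by 0.66 (limma adjusted p = 0.00651) but not over hours 5 to 8 (0.38, SE 0.23, adjusted p = 0.401). The U2 snRNP proteins Snrpa1 (0.18, SE 0.18) and Snrpb2 (0.11, SE 0.046) did not pass.

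None of the 9 members of SF3a and SF3b passed over hours 5 to 8. Sf3a3 was higher over hours 1 to 8 by 0.13 (SE 0.037, limma adjusted p = 0.0175). This call was lost with the early arrays of letter b set aside (0.10, adjusted p = 0.148). At time 0, before insulin, its mean level was 9.47 in control and 9.57 in the insulin culture. Relative to time 0 its difference over hours 1 to 8 was 0.032. Sf3a1 and Sf3a2, the other SF3a subunits, had late differences of 0.21 (SE 0.089, adjusted p = 0.147) and 0.12 (SE 0.076). Sf3b6, which contacts the branch point adenosine, had a late difference of -0.076 (SE 0.060), with control arrays at 11.30 to 11.58 (median 11.51) and insulin arrays at 10.96 to 11.65 (median 11.45). Sf3b1, the largest SF3b subunit and the target of splicing inhibitors, lay at -0.019 (SE 0.062). Sf3b4 stood out by its change with time, given below.

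Of the 11 PRP factors, 1 was lower with insulin over hours 5 to 8 and none was higher. Prpf18, which acts in the second catalytic step of splicing, ranged from 9.04 to 9.32 in control (median 9.23) and from 8.77 to 8.98 with insulin (median 8.87). Every insulin array lay below every control array. The difference was -0.32 (SE 0.037, limma adjusted p = 3.99e-08), which is 1.25-fold, with letters at -0.33, -0.25 and -0.38. Its dimmer probe set gave -0.29 (SE 0.078, adjusted p = 0.0112).

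Prpf38a, a factor of spliceosome activation, was higher over hours 1 to 8 by 0.19 (SE 0.061, limma adjusted p = 0.0373) and not over hours 5 to 8 (0.12, adjusted p = 0.461). It was below 0 in letter a and above 0 in letters b and c. Its call was lost with the early arrays of letter b set aside (0.13, adjusted p = 0.441). Relative to time 0 its difference over hours 1 to 8 was 0.0955. Prpf8, the protein at the core of the spliceosome, ranged from 10.12 to 10.65 in control (median 10.29) and from 10.00 to 10.59 with insulin (median 10.41), a difference of 0.013 (SE 0.076). Prpf19, a ubiquitin ligase of the spliceosome, had 0.092 (SE 0.072), Prpf3 and Prpf4, proteins of the U4/U6 snRNP, had 0.10 (SE 0.071) and 0.082 (SE 0.038), and Prpf6, which bridges the tri-snRNP, had -0.049 (SE 0.061), none of which passed.

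Rbms1, which binds RNA and single-stranded DNA through RNA recognition motifs, was higher in both comparisons. Over hours 5 to 8 it ranged from 10.03 to 10.49 in control (median 10.28) and from 10.35 to 10.69 with insulin (median 10.50), with overlap, and insulin was higher in 12 of 12 pairs. The difference was 0.25 (SE 0.071, limma adjusted p = 0.0163) and over hours 1 to 8 also 0.25 (SE 0.051, adjusted p = 6.68e-04). Letter b was higher than the others, at 0.41 against 0.11 and 0.24, and without letter b the late difference was 0.17 (adjusted p = 0.385). With only the early arrays of letter b set aside it was 0.22 (adjusted p = 0.0833).

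The calls leaned on single letters to different degrees. Without letter a 6 members were higher over hours 5 to 8, without letter b 5 and without letter c 11, beside 3.36%, 1.5% and 3.09% of all tested probe sets. Srsf1, Srsf6, Hnrnpab and Prpf18 passed over hours 5 to 8 in each of these fits, and each of the other 10 members called there was lost in at least 1 of them. Of the 16 members higher in either comparison, 14 had a positive difference over hours 5 to 8 in all 3 letters. The exceptions were Prpf38a and Sf3a3, each below 0 in letter a. Since the 16 were selected on these same arrays, this is a description. Among all 58 tested members, 33 had the same sign in all 3 letters, given without a share of all and not read as a trait of the members.

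The second question was when the differences arose. Before insulin, at time 0, no member passed (limma, 0 higher and 0 lower, beside 0% of all tested probe sets in either direction; 1 member and 0.957% of all at an unadjusted p under 0.05), and the median of the members was 0.0038. For letters a to c that median was 0.070, 0.041 and -0.068. Over hours 1 and 2 again none passed (limma, 0% of all in either direction; 9 members and 9.47% of all at an unadjusted p under 0.05), and the median was -0.0078. It was 0.092 over hours 3 and 4. By hour, the median over the members was -0.0099 and -0.0057 at hours 1 and 2, 0.088 and 0.065 at hours 3 and 4, 0.093, 0.11 and 0.077 at hours 5, 6 and 7, and 0.14 at hour 8.

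At single hours the calls were few. No member passed at hours 1 to 4 (limma). Of all 22143 tested probe sets, 0, 0, 0 and 11 passed at these hours. At an unadjusted p under 0.05 there were 1, 3, 3 and 4 members. These counts are given without a share of all and are not read as a trait of the members. Srsf1 was higher at hour 5 by 0.37 (adjusted p = 0.0115, beside 0.117% of all tested probe sets higher). At hour 6 Srsf1 and Srsf6 were higher by 0.35 and 0.27 (0.0497% of all higher) and Prpf18 was lower, at -0.32 (0.28% of all lower). Prpf18 was the member called at hour 7, at -0.35 (0.23% of all lower), and at hour 8 it lay at -0.39 (adjusted p = 0.00338, 0.528% of all lower), where Srsf1 was higher by 0.30 (adjusted p = 0.0413, 0.185% of all higher). Tested over the 8 hours jointly, 5 members differed at any hour (limma F test, 2.4% of all): Prpf18 (adjusted p = 6.79e-06), Srsf1 (7.04e-05), Srsf6 (2.98e-04), Hnrnpab (0.00617) and Hnrnpdl (0.0118).

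**Figure D3:**
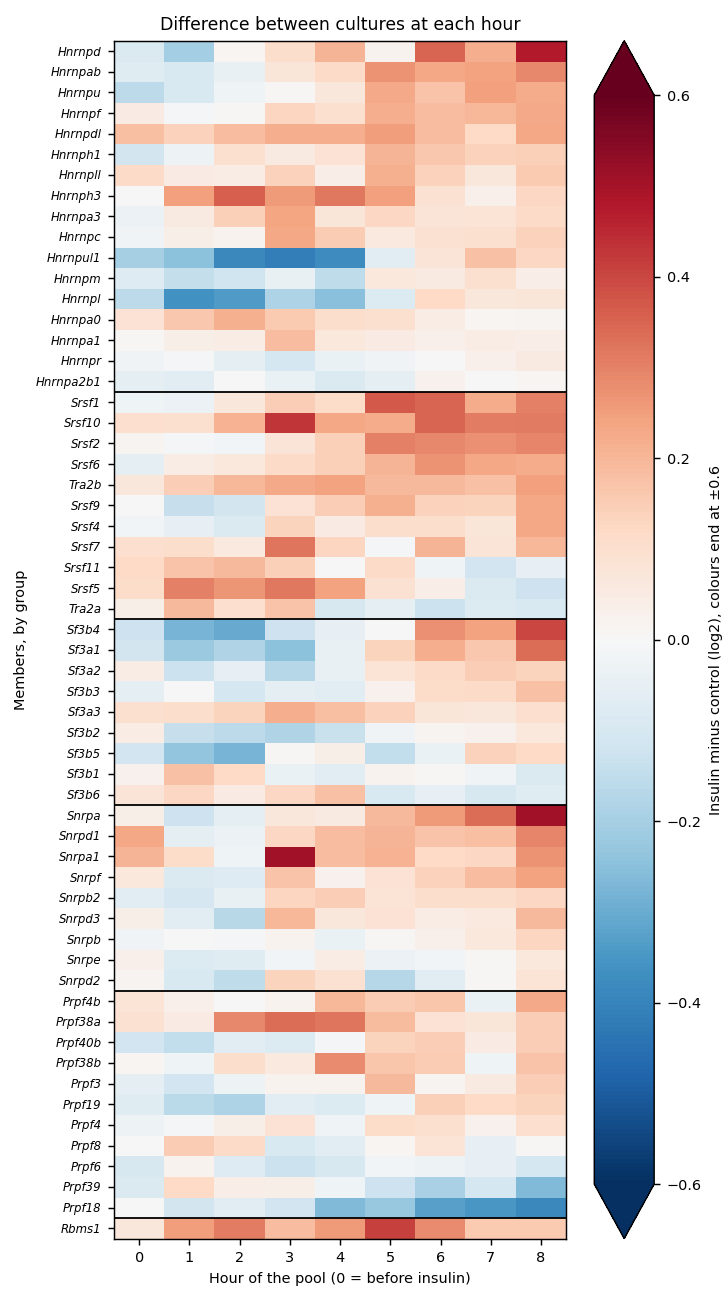
Insulin minus control difference (log2 scale) of each tested member at time 0 and at hours 1 to 8, with members in groups separated by lines and ordered by their difference over hours 5 to 8; red is higher and blue lower with insulin, and colours end at 0.6 either way. The medians move from -0.0099 at hour 1 to 0.14 at hour 8, and Prpf18 darkens to -0.39 at hour 8.

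The change of the difference from hours 1 and 2 to hours 5 to 8 was tested directly. It was upward in 3 members (0.93% of all tested probe sets) and downward in 1 (0.908% of all). The difference of Srsf1 changed from 0.018 to 0.31, by 0.29 (SE 0.065, limma adjusted p = 0.0111), and that of Hnrnpab from -0.068 to 0.26, by 0.33 (SE 0.070, adjusted p = 0.00817). The difference of Prpf18 changed from -0.090 to -0.32, by -0.23 (SE 0.063, adjusted p = 0.0458).

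Sf3b4, an SF3b subunit that binds RNA near the branch point, changed most among these, from -0.29 over hours 1 and 2 to 0.23 over hours 5 to 8, by 0.52 (SE 0.14, limma adjusted p = 0.0373), although neither window passed alone (adjusted p = 0.399 and 0.0623). For letters a to c the early values were 0.039, -0.60 and -0.31, and the late ones 0.51, 0.090 and 0.080. Letter b was thus lowest early and letter a highest late. With the early arrays of letter b set aside, no member passed for the change (limma; 13 members and 8.5% of all at an unadjusted p under 0.05), with values of 0.42 for Sf3b4 (adjusted p = 0.337), 0.29 for Srsf1 (0.173), 0.32 for Hnrnpab (0.169) and -0.26 for Prpf18 (0.212). With the letter as a block 15 members changed upward and 1 downward, beside 6.18% and 5.69% of all.

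In contrast, the differences of Rbms1, Tra2b and Hnrnpdl hardly moved between the windows, at 0.28 and 0.25, 0.17 and 0.20, and 0.16 and 0.20. Their changes were -0.029, 0.028 and 0.037, with adjusted p of 0.959, 0.949 and 0.899 (limma). Hnrnpl, which binds CA repeats, was at -0.35 over hours 1 and 2 and at 0.044 over hours 5 to 8, and Hnrnpul1, a relative of Hnrnpu, at -0.32 and 0.077, without passing in either window.

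The third question was how each culture moved from its own time 0, which shares arrays with the comparisons above. In the control culture, 4 members fell from time 0 to hours 5 to 8 and 2 rose, beside 2.8% and 3.61% of all tested probe sets. Rbms1 fell by 0.49 (SE 0.11, limma adjusted p = 0.00428), Srsf1 by 0.38 (SE 0.059, adjusted p = 4.25e-05), Hnrnpu by 0.29 (SE 0.085, adjusted p = 0.0278) and Hnrnpab by 0.27 (SE 0.064, adjusted p = 0.00504). Srsf5 rose by 0.54 (SE 0.17, adjusted p = 0.0456) and Prpf18 by 0.21 (SE 0.058, adjusted p = 0.0215).

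In the insulin culture 1 member rose and none fell (limma, 0.51% and 0.93% of all). Srsf2 rose by 0.35 (limma adjusted p = 0.0263). Letters a to c went from 12.04, 11.58 and 11.87 at time 0 to 12.38, 12.22 and 12.14 at hour 8. This call was lost with the early arrays of letter b set aside, and also with any single letter left out. Srsf5 was 0.41 above its time 0 without passing (adjusted p = 0.319), beside 0.54 in the control culture, and Prpf4b, a kinase of the spliceosome, was at -0.60 with insulin and at -0.65 in control without passing. These 2 genes moved in the same direction in both cultures.

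Srsf1 illustrates the more frequent course. The control arrays of letters a to c were 11.14, 11.09 and 11.28 at time 0 and 10.88, 10.77 and 10.79 at hour 8, whereas the insulin arrays were 11.10, 11.15 and 11.18 at time 0 and 11.29, 11.13 and 10.92 at hour 8. The control culture fell in each letter, and the insulin culture was higher in letter a, near its start in letter b and lower in letter c. Prpf18 did the reverse, from 8.99, 8.97 and 8.99 to 9.22, 9.25 and 9.25 in control and from values between 8.95 and 9.01 to 8.77, 8.92 and 8.88 with insulin. Here the control culture rose in each letter and the insulin culture ended lower in each.

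Over all 58 tested members, the median change from time 0 to hours 5 to 8 was -0.087 in the control culture and 0.0069 in the insulin culture, beside 0.0065 and 0.0026 across all tested probe sets. It was below 0 in 45 members in control and in 27 with insulin. Among the 16 members called higher with insulin, it was below 0 in 13 in control and in 7 with insulin, with medians of -0.22 and 0.024; these members were selected with the same control arrays, so this is a description. Measured against the difference at time 0, no member passed over hours 5 to 8 or hours 1 to 8 (limma, 0 higher and 0 lower; 7 and 6 members, and 5.82% and 2.33% of all, at an unadjusted p under 0.05). The lowest adjusted p over hours 5 to 8 was 0.0588 for Srsf6, followed by 0.08 for Srsf1, 0.0936 for Prpf18 and 0.143 for Hnrnpab, with differences relative to time 0 of 0.29, 0.34, -0.32 and 0.33.

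**Figure D4:**
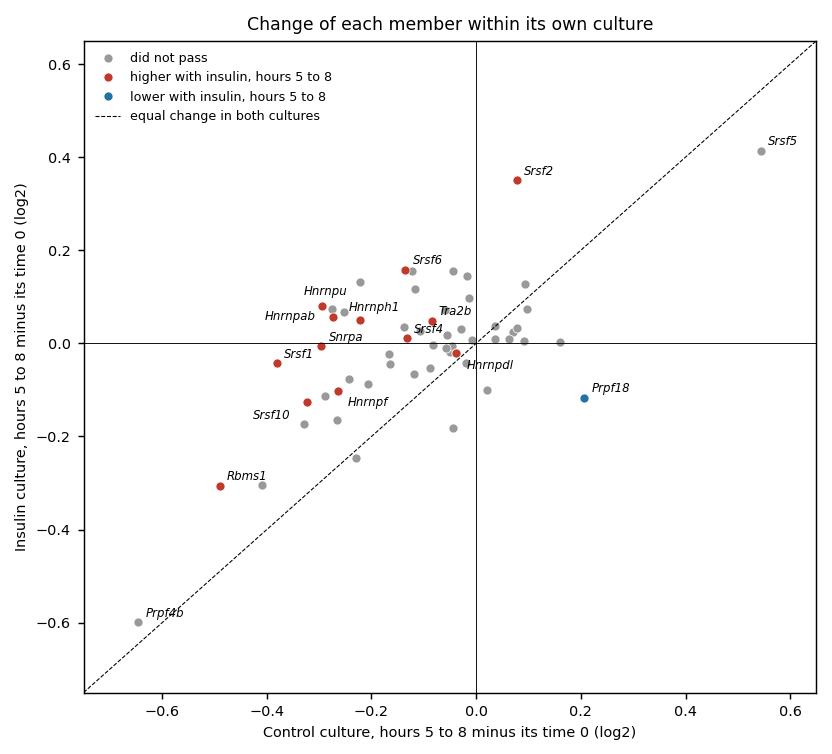
Change from time 0 to the mean of hours 5 to 8 (log2 scale) of each tested member in the control culture (x axis) and in the insulin culture (y axis); the dashed line marks equal change, and colours give the call of the difference between cultures over hours 5 to 8. Most points called higher lie left of 0, in the range from -0.49 to 0.078 in control, Srsf2 is the called point that rose with insulin (0.35), and Srsf5 and Prpf4b lie near the dashed line.

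Other genes of splicing were read from a list outside the rule. Of 183 listed genes 164 were tested, and 12 passed as higher with insulin in hours 5 to 8 (7.32%), 4 were lower (2.44%) and 148 did not pass, with a median difference of 0.029. The largest differences upward were those of Sf1, which recognises the branch point (0.45, SE 0.10, limma adjusted p = 0.00266), of Syncrip, an hnRNP-like protein also called hnRNP Q (0.31, adjusted p = 0.00199), of Sfpq, a paraspeckle protein (0.31, adjusted p = 0.0136), and of Alyref, an adaptor of mRNA export (0.29, adjusted p = 0.0108). Those downward were of Cir1, a corepressor that binds SR proteins (-0.74, SE 0.095, adjusted p = 4.09e-07), of Syf2, a spliceosome component (-0.38, adjusted p = 2.89e-06), of Rbm4b, an RNA-binding splicing regulator (-0.27, adjusted p = 0.00435), and of Crnkl1, a spliceosome scaffold protein (-0.26, adjusted p = 0.0349). By function, 4 of 71 core factors, 1 of 17 kinases and matrix proteins, 3 of 50 regulators, 2 of 11 exon junction and export proteins and 2 of 15 proteins of snRNP assembly were higher, beside the 3.98% of all tested probe sets; in the core factors, the kinases and matrix proteins and the regulators the share was close to that of all. The last of these groups includes Smn1, the spinal muscular atrophy protein that loads the Sm ring (0.25, adjusted p = 0.00329), and the kinase group Srpk1, which phosphorylates SR proteins (0.27, adjusted p = 0.00869).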

How the data were processed

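The deposited values are log2 levels that the authors made with RMA (background subtraction, quantile normalization over arrays, summary of probes; version not given in the sources used here). Quantile normalization equalizes the arrays' distributions, so a shift common to all genes cannot be seen, and no depth exists for arrays: their number limits the precision. Groups came from the labels; the labels of the last pool disagree on its first time, and 440 min was used. Symbols came from the platform annotation, and all 61 members matched RefSeq by gene ID.

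The members and gene lists were chosen with earlier results of these data known. Probe sets with a mean log2 level of at least 5, without 57 controls of the manufacturer, were tested (22143). With limma 3.58.1 in R 4.3.3, 1 mean per group was fitted, with a moderated variance following the mean level; tests are two-sided, with Benjamini-Hochberg adjustment over all tested probe sets and a threshold of 0.05. The script was tested on simulated data. Letters mark repeats on different days, and in 26 of 26 pairs the insulin and control arrays of a letter and hour departed jointly from their group means (correlation 0.21 to 0.79). Genes given with values were all members that passed for any hour or for the change with time, up to 12 called members in each direction, the brightest member of each group, members whose probe sets disagree, members of the study's pattern table and 4 other splicing genes in each direction; values of further members were added for completeness.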

Additional observations from a re-analysis of the deposited data

Results flagged for a closer look

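The difference between the insulin and control cultures was not the same early and late in 4 members, by limma's test of the late difference (hours 5 to 8) against the early one (hours 1 and 2; adjusted p under 0.05). The change was 0.518 for Sf3b4, 0.326 for Hnrnpab, 0.292 for Srsf1 and -0.231 for Prpf18 on the log2 scale. None of these passed with the arrays of letter b up to hour 5 set aside, or without letter b altogether.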

How the results depend on the processing

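With the letter as a block, which follows from the pairing of the letters, the counts of members became 25 higher over hours 1 to 8, 22 higher and 2 lower over hours 5 to 8, 15 upward for the change from early to late, 3 higher over hours 1 and 2, 17 lower in the control culture against its time 0, 3 higher and 3 lower in the insulin culture, and 16 at any hour. Under the block, 11.6% of all tested probe sets were higher over hours 1 to 8. Over hours 5 to 8, 9.26% were higher and 12.4% lower, and 6.18% changed upward from early to late. Counts of members in this section without such a share are not read as a trait of the members. No call of the fit without the block was lost over hours 1 to 8, hours 5 to 8 or the change. With 1 mean per letter, 0 members passed in any comparison tested so, and with 1 mean per letter and the block, chosen after seeing the data, 1 member was higher and 2 were lower in the control culture and 0 passed elsewhere. Relative to the difference at time 0, 0 were higher and 0 lower over hours 1 to 8 and over hours 5 to 8.

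Without letter b at hours 0 to 5, 8 members were higher over hours 1 to 8 and 0 changed in either direction from early to late, and against time 0 there were 0 higher and 2 lower in the control culture and 0 higher in the insulin culture. Without the filter on low values the change was downward in 0 members and 1 was higher in the control culture. With arrays centred on the median these counts were 0 and 0, and 9 were lower in the control culture.

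Leaving out each letter in turn gave 5 to 13 higher and 1 to 3 lower over hours 1 to 8, 5 to 11 higher and 1 to 2 lower over hours 5 to 8, 0 to 2 upward and 0 to 0 downward for the change, 0 to 2 lower over hours 1 and 2, 0 to 1 higher and 1 to 10 lower in the control culture, 0 to 0 higher in the insulin culture, and 1 to 7 at any hour. The cause of these shifts was not tested. Over hours 5 to 8, the share of all tested probe sets called higher was 3.36% without letter a, 1.5% without letter b and 3.09% without letter c. No called member reversed its direction under any of these alternatives. With the mean of the tested probe sets of a gene, 3 of the 14 calls over hours 5 to 8 were lost.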
